A study of Mus musculus with 2 samples.

Results

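The transcripts described are those of 6 translation initiation factor genes, Eif2s2, Eif3a, Eif4a2, Eif4e2, Eif5 and Eif5b, that carried peaks of the reader protein YTHDF2 in mouse muscle cells. They were chosen by name from the authors' table of peaks with genes, so having a peak is not a result here. They are 6 of the 1285 genes of that table and account for 8 of its 1541 peaks. With the peaks that lie anywhere over the 6 gene bodies, the number is 9 of 9271.

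The cells were wild-type C2C12, an established mouse myoblast line, differentiated into myotubes in medium with horse serum and given no further treatment. In 1 library, an antibody against YTHDF2 pulled down the RNA (RNA immunoprecipitation, RIP). The reference was 1 input library of the same cells with the same batch label. The labels word the library steps for DNA and give no strand. An IgG control named in the design text was not analysed here. Both libraries stand alone, with no replicate, and no test was made.

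Translation initiation brings a ribosome to the start codon of an mRNA. The factor eIF2 carries the initiator tRNA, eIF3 is the scaffold that binds the small ribosomal subunit, and the eIF4 factors recognise the cap and unwind the leader. Then eIF5 triggers GTP hydrolysis by eIF2, and the GTPase eIF5B promotes joining of the large subunit. YTHDF2 binds N6-methyladenosine (m6A) in RNA and recruits deadenylases. Setting RIP against input asks where along these mRNAs the protein was found.

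The sequences below show where 3 of the peaks lie relative to coding exons, because the authors marked all 3 as coding sequence. Each is the whole peak, 5′ to 3′ on the strand of the gene, from the RefSeq GRCm38 assembly (the build of mm10). For Eif5b (chr1:38018943-38019225, plus strand) capitals mark the consensus of m6A sites, DRACH, where D is A, G or T, R is A or G, and H is A, C or T. For Eif4a2 (chr16:23108961-23109168, plus strand) and Eif3a (chr19:60781453-60781678, minus strand) capitals mark the coding exon, and lower case is intron.
Eif5b: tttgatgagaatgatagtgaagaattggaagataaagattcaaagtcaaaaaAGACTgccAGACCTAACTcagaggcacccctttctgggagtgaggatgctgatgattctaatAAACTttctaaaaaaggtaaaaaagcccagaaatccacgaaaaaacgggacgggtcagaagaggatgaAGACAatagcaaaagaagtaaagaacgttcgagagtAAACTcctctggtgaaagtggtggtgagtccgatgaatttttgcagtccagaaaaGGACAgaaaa
Eif4a2: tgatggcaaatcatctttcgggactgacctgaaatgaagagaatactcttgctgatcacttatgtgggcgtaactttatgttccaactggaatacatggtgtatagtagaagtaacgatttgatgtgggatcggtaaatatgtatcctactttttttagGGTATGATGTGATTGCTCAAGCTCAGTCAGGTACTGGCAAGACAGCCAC
Eif3a: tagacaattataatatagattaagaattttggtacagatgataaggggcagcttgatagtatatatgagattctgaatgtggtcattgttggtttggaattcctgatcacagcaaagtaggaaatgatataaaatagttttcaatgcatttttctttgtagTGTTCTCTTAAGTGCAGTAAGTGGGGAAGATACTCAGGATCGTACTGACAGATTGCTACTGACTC

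The Eif5b peak is coding sequence from end to end, whereas most of the Eif4a2 and Eif3a peaks is intron that runs into the 5′ side of a coding exon. For the 4 peaks in untranslated regions, 30 bases show the match nearest the summit, with the central adenosine at base 15. GGACH, the narrower form of the consensus, is given where the peak has it and DRACH otherwise, in capitals. The windows lie at chr2:154892524-154892553 (minus strand), chr1:87214181-87214210, chr12:111544853-111544882 and chr12:111545329-111545358 (plus strand), in the order printed.
Eif2s2, 5′ end: tggagccggcgaGGACTctggatcctcaga
Eif4e2, 5′ end: ccgaggtcgccgGGACCcctgagccgctgg
Eif5, first peak: aaacctagtggtGGACAcatttggatcaca
Eif5, second peak: cagggaaattgtTAACAaataagtattttg

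Each peak is described by the authors' pileup at its summit, their fold enrichment and their q-value, and by the input background computed from pileup and fold. A pileup step of 0.9 was taken as 1 RIP fragment. Background is in the same scaled units, and intervals are 95% Poisson intervals of the RIP fragments with the background held fixed. They cover counting error of 1 library only. The median peak of the authors' gene table held 57 fragments (quartiles 32 and 93) over a background of 15, with a fold enrichment of 3.25 (quartiles 2.42 and 4.53).

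Among the 6 transcripts, Eif5b, Eif4a2 and Eif5 held the most fragments and Eif2s2 the highest fold. The 8 peaks ran from 28 to 118 fragments (median 73.0) and from 1.96 to 4.64 in fold (median 3.21). The fold was at or above the median of the gene table in 4 of the 8 peaks, and the fragments in 5. Only the Eif2s2 peak reached a fold of 4, which 33.2% of the gene table's peaks did. The median of the 8 peaks is near that of the table, while single peaks lay from percentile 10.4 of its folds (Eif4e2) to percentile 76.2 (Eif2s2).

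**Figure D1:**
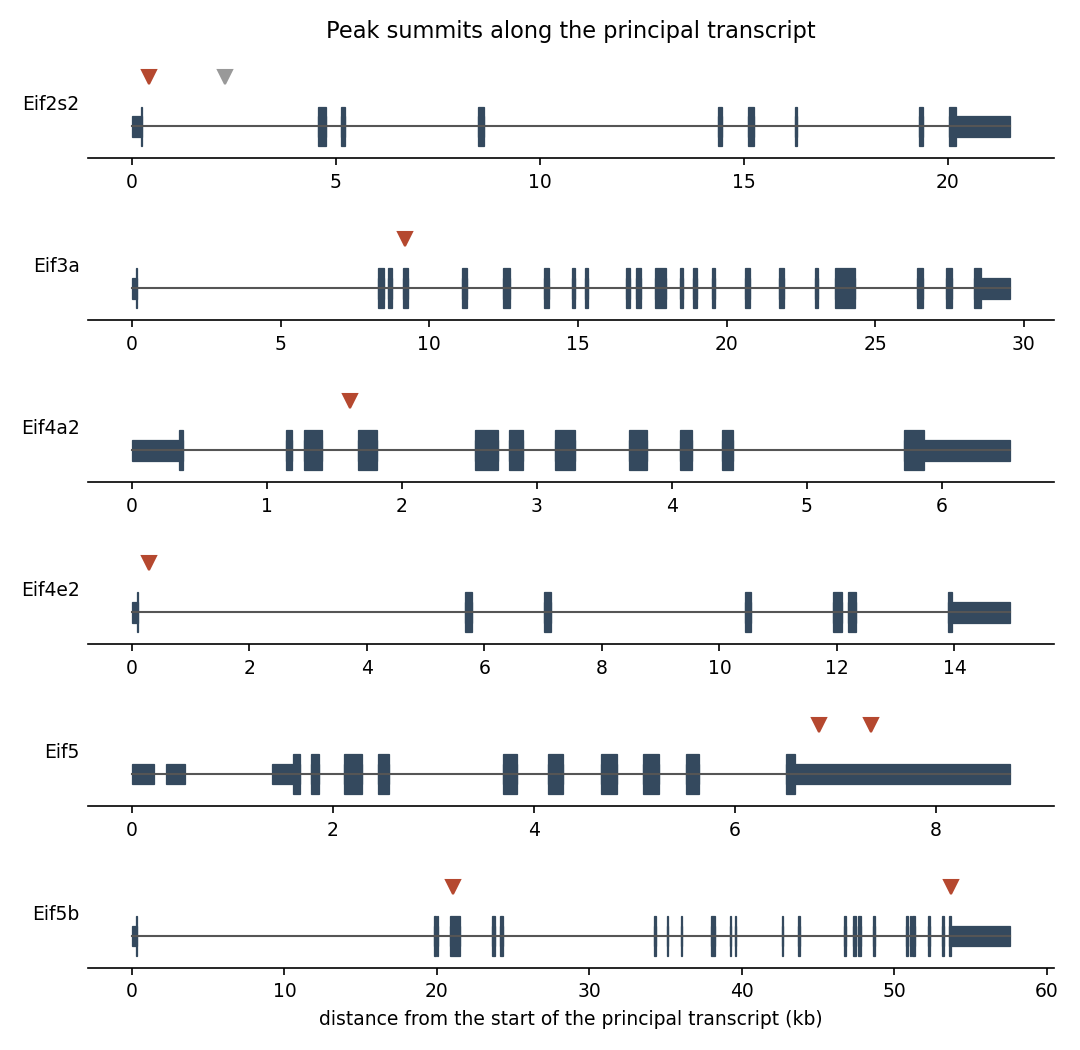
Exons of the principal transcript of each gene (tall boxes coding, low boxes untranslated) against distance from its start in kb, each gene on its own scale, with triangles at peak summits, red for peaks of the authors' gene table and grey for the Eif2s2 peak outside it. Summits of Eif2s2, Eif4e2 and Eif4a2 stand over introns, and those of Eif3a, Eif5 and Eif5b stand over exons.

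The factor that joins the ribosomal subunits, Eif5b (ENSMUSG00000026083.12), had a peak near each end of its coding sequence, in a gene of 57570 bp on the plus strand. The first lay wholly in exon 4 of 24, a coding exon of 670 bp. Its pileup was 106.2, from 118 fragments over a background of 41, and its fold was 2.55 (2.12 to 3.05, q = 1.63e-13). That is the largest number of fragments among the 8 peaks and the second lowest fold, and the input background was the highest there. The other peak spanned the stop codon in exon 24, with 81 of its 199 bp in coding sequence and its summit 39 bases past the stop codon. Its pileup was 71.1, from 79 fragments over 22, with a fold of 3.13 (2.49 to 3.90, q = 5.45e-13). The intervals of the folds overlap, and a difference between the 2 sites was not tested.

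The GTPase-activating factor Eif5 (ENSMUSG00000021282.17) had both of its peaks in the long last exon, exon 12 of 12, within a 3′ UTR of 2134 bases. The first, chr12:111544763-111544986, had its summit 234 bases past the stop codon. Its pileup was 60.3, from 67 fragments over 21, and the fold was 2.79 (2.17 to 3.53, q = 6.23e-09). The second, chr12:111545270-111545455, had its summit 749 bases past the stop codon. There the pileup was 78.3, from 87 fragments over the same background of 21, and the fold was 3.60 (2.90 to 4.44, q = 1.68e-17). The peaks were 283 bp apart. The second held 56.5% of their 154 fragments, with an exact binomial interval of 48.3 to 64.4% that includes an even split. The first touched 4 coding transcripts of GENCODE and the second 3 of them.

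Sequence copies bear on how reads of the Eif5 and Eif5b peaks could be placed. Each Eif5 peak had 3 other places in the genome with at least 90% identity over at least 80% of its width, the closest at 94.6% for the first peak and 97.8% for the second. The Eif5b stop codon peak had 1 such copy, at 93.5%, and 0 were found for the Eif5b exon 4 peak or for the peaks of the other 4 genes. How the authors treated reads with several placements is not given in the sources used here, and the part of such reads in these folds was not tested.

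The RNA helicase gene Eif4a2 (ENSMUSG00000022884.15) had a single peak with a pileup of 97.2, from 108 fragments over 28. Its fold was 3.39 (2.78 to 4.08) and its q-value, 5.77e-20, was the smallest of the 8. The authors marked it as coding sequence. In GENCODE only 49 of its 208 bp were in exon 4 of the principal transcript, and the summit lay in the intron before it. That intron encodes the small nucleolar RNA Snord2, a guide for ribosomal RNA methylation, at chr16:23108953-23109021 on the same strand. The peak covered 61 bp of Snord2, and the summit was 36 bp past its end. In 3 transcripts annotated with a retained intron, the summit was exonic. Whether the fragments came from the snoRNA, the intron or the mRNA was not tested, and strand is not given in the files.

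The largest eIF3 subunit, Eif3a (ENSMUSG00000024991.8), had the fewest fragments of the 8 peaks, 28 over 7 (pileup 25.2), with a fold of 3.27 (2.22 to 4.68, q = 4.83e-05). It too was marked as coding sequence, but 161 of its 226 bp were outside exon 4 of 22, in the intron before it. Unlike that of Eif4a2, its summit was inside the coding exon, and a DRACH match (TGACA) has its adenosine at the summit itself.

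The 2 peaks marked as 5′ UTR were at the starts of their genes and outside every exon of the principal transcripts. Eif2s2 (ENSMUSG00000074656.12), the beta subunit of eIF2, had a pileup of 45.9 from 51 fragments over 9.11 at chr2:154892436-154892673. Its fold of 4.64 (3.48 to 6.07, q = 7.97e-14) was the highest of the 8. The summit was 421 bp past the transcript start, in the first intron of the principal transcript and in a first exon of 687 bp of 1 other coding transcript. A further peak, chr2:154890634-154891038, is not in the gene table and touched no exon. It held 21 fragments over 6, with a fold of 2.84 (1.81 to 4.27, q = 0.0101), and 56.8% of its bases are masked as repeats in the assembly. Both peaks also lie inside the body of the gene a (nonagouti), which runs on the opposite strand.

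Eif4e2 (ENSMUSG00000026254.17), a cap-binding relative of eIF4E that represses translation, had the lowest fold of the 8 peaks. At chr1:87214144-87214404 it had a pileup of 34.2 from 38 fragments over 17, and the fold was 1.96 (1.40 to 2.66). Its q-value of 0.0343 stood close to the weakest among all 9271 peaks, 0.0368, and 4 peaks of the gene table had a larger one. The summit was 287 bp from the transcript start, in the first intron of the principal transcript. It lay in an exon of another coding transcript, and the peak touched exons of 3 such transcripts, the widest of 557 bp. Both 5′ peaks were rich in G and C, at 66.8% for Eif2s2 and 77.4% for Eif4e2, against 34.4 to 40.9% in the other 6 and a median of 44.8% in the gene table.

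**Figure D2:**
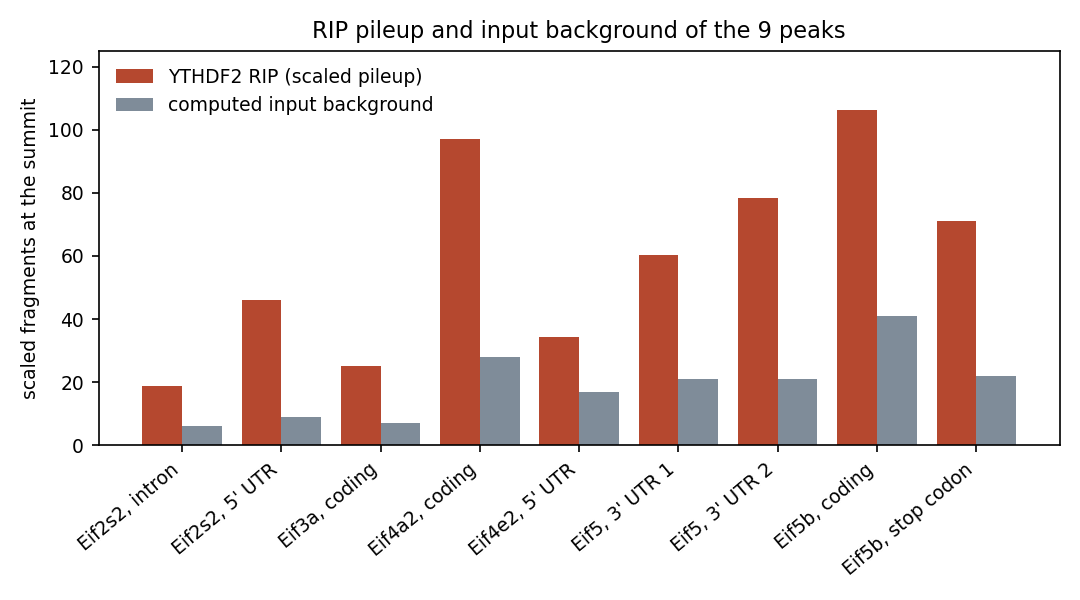
Scaled pileup at the summit in the RIP library (red) and the computed input background (grey) for the 8 peaks of the gene table and the Eif2s2 intron peak, in scaled fragments. The Eif5b exon 4 peak is highest in both, at 106.2 and 41.0.

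Across the 8 peaks, 4 lay with most of their width in exons of the principal transcript, the 4 of Eif5 and Eif5b. Of 1531 gene-table peaks that could be placed in the same way, 76.7% did so (Wilson 95% interval 74.6 to 78.8). The summit was in a principal exon for 5 of the 8 peaks, against 79.6% (77.5 to 81.5) of the table. With any coding transcript allowed, the summit was exonic for 7 of the 8, all but Eif4a2, against 88.0% (86.3 to 89.5). The authors' marks for the 8 were coding sequence alone for 3, 3′ UTR alone for 2, 5′ UTR alone for 2 and stop codon for 1, with 0 over a start codon.

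**Figure D3:**
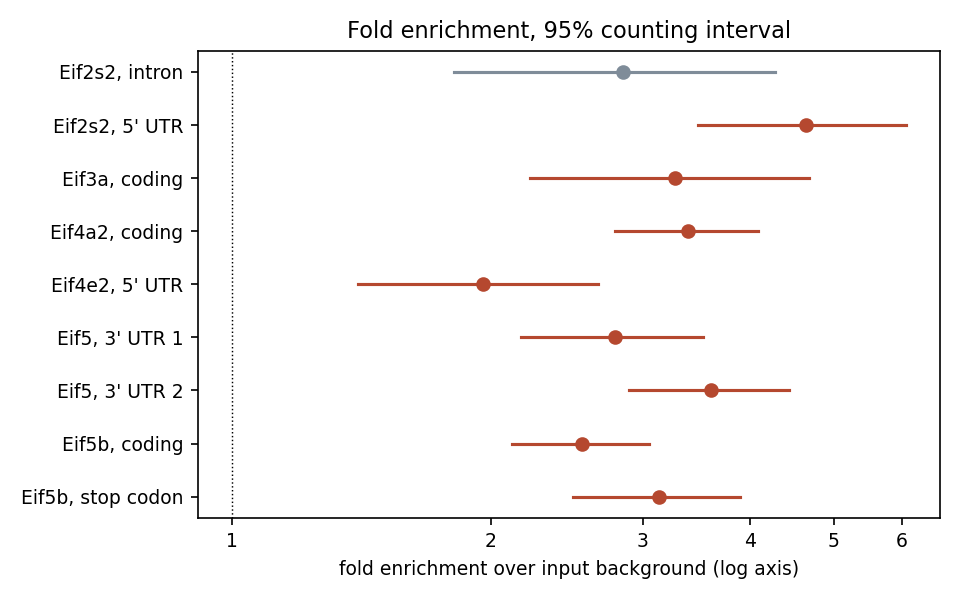
Fold enrichment over the input background on a log axis, with 95% counting intervals of the RIP fragments, for the 8 peaks of the gene table (red) and the Eif2s2 intron peak (grey). Eif2s2 at 4.64 and Eif4e2 at 1.96 are the highest and the lowest, and most other intervals overlap.

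With the background held fixed, the intervals were separate in 4 of the 28 pairs of these peaks. Eif2s2 was above Eif4e2 and above the Eif5b exon 4 peak, and Eif4a2 and the second Eif5 peak were above Eif4e2. In the other pairs the intervals overlapped, which is no test of a difference, and their order was not tested. The background was a whole number, read as input fragments at the summit, for 7 of the 8 peaks. With both counts allowed to vary, the lower bound of the ratio was above 1 for all 7, from 1.11 for Eif4e2 to 2.29 for the second Eif5 peak. On these wider bounds Eif4e2 (1.11 to 3.80) overlapped Eif4a2 (2.27 to 5.47) and the second Eif5 peak (2.29 to 6.32). For Eif2s2, whose background was not whole, no such bound was made. The order given above therefore leaves out the counting error of the input. The peaks were called above this input from the same counts, so a bound above 1 is partly built in and is no independent support.

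**Figure D4:**
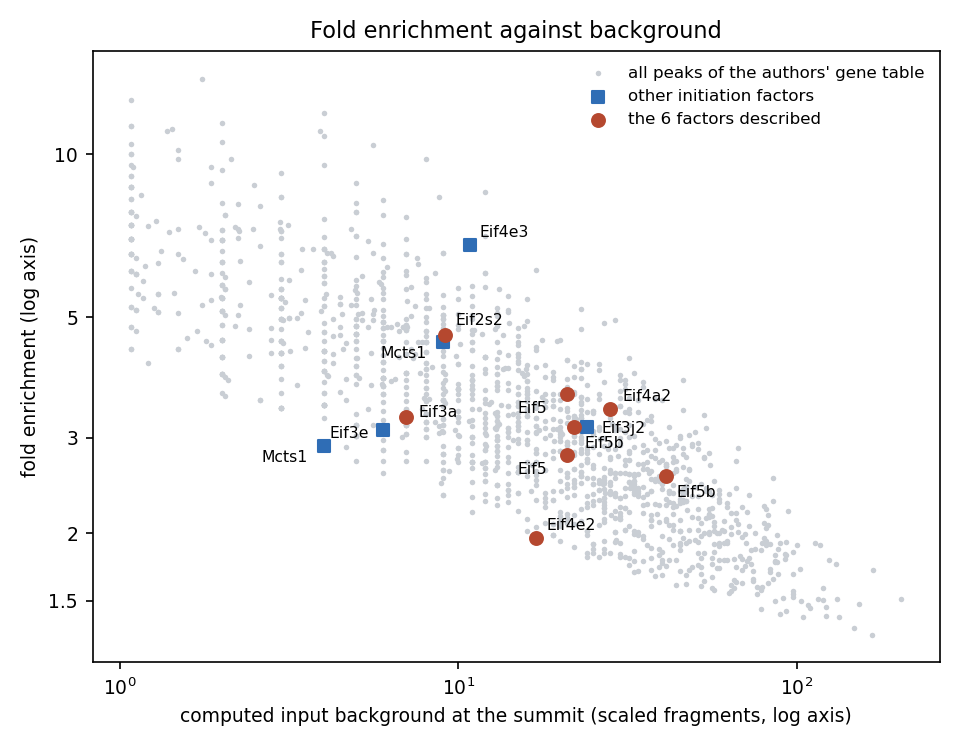
Fold enrichment against computed input background at the summit, both on log axes, for all peaks of the gene table (grey), the 6 factors (red) and 4 other initiation factors (blue). Eif4e2 stands at the lower edge of the cloud and Eif4e3, at 6.80, near its upper edge.

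The peaks held DRACH as densely as the gene table and GGACH more densely, on the strand of the gene and with overlapping matches counted. DRACH matched 32 times in 1825 bp, 17.5 per kb, against 17.8 per kb over 1537 gene-table peaks. It was present in 8 of 8 peaks, and in 95.8% of the 1066 table peaks of like width. GGACH, whose matches are also DRACH matches, was found 10 times, 5.48 per kb against 2.52 per kb. It was in 6 of the 8 peaks and in 43.4% of those of like width. The 2 peaks at 5′ ends held 5 of the 10 matches, and the other 6 peaks had 3.77 per kb. Eif3a and the second Eif5 peak held 0. The 1 match of Eif4a2 lay inside Snord2, and the 1 match of the Eif5b exon 4 peak was 137 bp from its summit. A match is a sequence of letters only, and methylation was not measured.

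In base composition, the sense strand of the Eif5b exon 4 peak was 65.4% A and G, above 98.6% of gene-table peaks, and the other 7 peaks reached at most 57.3%. The gene-table peak of Eif3j2, another initiation factor gene, was higher still, at 69.8%.

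Of a list of 50 initiation factor genes, 10 (20.0%) had a peak in the authors' gene table, where 5.82% of all 21911 protein-coding genes did. Since 6 of the 10 were chosen for having such a peak, that share is partly built in. Without them it was 4 of 44 (9.09%). Over whole gene bodies 16 (32%) of the 50 had a peak, and 10 (22.7%) of the 44, against 15.0% of all protein-coding genes. The shares of the 44 are lowered by construction, since only genes with a peak were taken out. The level of each RNA is not known from these files, and its part in these shares was not tested. The list's genes had a median body of 18.0 kb and all protein-coding genes one of 17.4 kb. The highest fold per gene had a median of 3.33 for the 10 and 3.43 for all protein-coding genes of the gene table.

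The 4 others with a gene-table peak were Eif3e, Eif3j2, Eif4e3 and Mcts1. Eif4e3, a further cap-binding relative of eIF4E, had the highest fold of any initiation factor in the gene table. Its peak, chr6:99626606-99626839 in the 3′ UTR, held 88 fragments over 10.8, a fold of 6.80 (5.47 to 8.36) that was above 93.4% of the table. That place is also inside Gm20696, a gene model on the same strand. Mcts1, which promotes reinitiation, had a stop codon peak of 49 fragments over 9 at 4.51 (3.36 to 5.93). It also had a start codon peak of 15 over 4 at 2.90 (1.71 to 4.65, q = 0.031). Of the 5 peaks over its body, the one with the most fragments is not in the gene table. It held 112 over 21 at 4.63 (3.82 to 5.56), and 78.1% of its bases are masked as repeats. The summit of the start codon peak and 278 of its 402 bp were outside exons of the principal transcript. The eIF3 subunit gene Eif3e had 23 fragments over 6 at 3.10 (2.02 to 4.58, q = 0.00129) in a peak marked as coding sequence. The summit of that peak and 271 of its 333 bp were outside exons of the principal transcript. The body of Eif3e held 4 peaks, and the highest, at 6.73 (4.62 to 9.50), touched no exon. Eif3j2, a gene of 1 exon related to Eif3j1, had 86 over 24 at 3.14 (2.52 to 3.86).

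By complex, the gene table held both eIF5 and eIF5B, 2 of 4 eIF4E genes, 1 of 3 eIF4A genes, 1 of 4 eIF2 genes and 3 of 14 eIF3 genes. These counts include the 6 chosen genes and so partly restate the choice. It held 0 of 5 genes of eIF2B, the exchange factor of eIF2, 0 of 4 genes of eIF1 and eIF1A, and 0 of 3 genes of the cap scaffold eIF4G. With 5.82% of all protein-coding genes in the table, a count of 0 in groups this small sets none of them apart. Another 6 genes had peaks over the gene body only. Except for 1 peak of Abce1, these peaks touched no exon of their gene. The highest fold was that of Eif2a, 8.79 (5.61 to 13.2), from only 21 fragments over a background of 1.26, with an interval that overlaps those of the next 3. Abce1, the ribosome recycling factor, reached 6.83 (4.82 to 9.42), Eif3j1 6.35 (4.13 to 9.38), and Eif2s1, the alpha subunit of eIF2, 5.65 (3.71 to 8.28). Eif4b, a helper of the helicase, reached 4.06 (3.18 to 5.10) with 71 fragments over 15. The remaining gene, Eif4g3, named after its value was seen, stood at 3.98 (2.59 to 5.89).

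**Figure D5:**
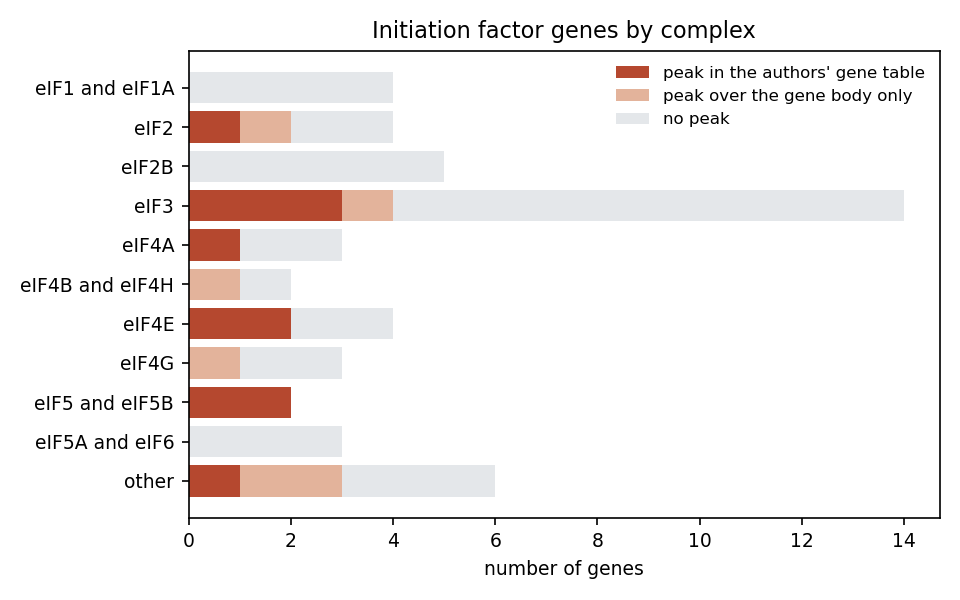
Number of genes of each initiation complex with a peak in the authors' gene table (dark), with a peak over the gene body only (light) and with none (grey). Both genes of eIF5 and eIF5B have a gene-table peak, and the 5 eIF2B genes have no peak.

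Among 23 regulators of initiation and mitochondrial initiation factors, 2 (8.70%) were in the gene table, near the 5.82% of all protein-coding genes. Over the body, 8 (34.8%) had a peak, against 15.0%. These 8 genes ran from 14.5 kb (Bzw1) to 123.8 kb (Gigyf2), and the median of all protein-coding genes was 17.4 kb. Only Bzw1, Mtif2 and Paip1 had a peak that touched an exon. The part of gene length and RNA level in that share was not tested. Mtif2, the mitochondrial counterpart of eIF5B, had a coding peak at 4.90 (3.49 to 6.70), from 37 fragments over 6. Bzw1, an eIF5 mimic, had a 3′ UTR peak with 115 fragments over 64, at 1.61 (1.33 to 1.93), below all but 2.21% of the gene table. Of its 3 peaks over the gene body, only 1 touched an exon and only the 3′ UTR peak is in the gene table. The highest was at 8.42 (6.38 to 10.9), from 55 fragments over 5. That is the highest fold of the 23 genes, with an interval that overlaps those of others, Paip1 among them. Gigyf2, the partner of eIF4E2 in repression, had 7 peaks over its body and 0 in the gene table, with folds from 3.10 to 5.16. The poly(A)-binding protein partner Paip1 reached 7.83 (5.19 to 11.4). The eIF2 kinase Eif2ak4 reached 4.67 (3.20 to 6.59), the eIF4E transporter Eif4enif1 4.53 (2.63 to 7.38) and Paip2 4.06 (3.18 to 5.10).

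The authors' deposited table of KEGG pathways lists all 6 genes under RNA transport. That pathway held 18 of 142 annotated genes where 8.26 were expected (Fisher's exact test, FDR 0.0531, authors' deposited table). In the authors' deposited table of Gene Ontology (GO) terms, translational initiation held 12 of 71 annotated genes where 4.36 were expected (Fisher's exact test, p = 0.00118, FDR 0.0245), all 6 among them. The GO term translation held 43 of 355 where 21.8 were expected (Fisher's exact test, FDR 0.000701, authors' deposited table), again with all 6. The GO term RNA transport held 9 of 78 where 4.79 were expected (Fisher's exact test, FDR 0.293, authors' deposited table), with 0 of the 6. Translation initiation factor activity held 8 of 44 where 2.67 were expected (Fisher's exact test, FDR 0.104, authors' deposited table). The term for the eIF3 complex held 1 gene of 8, Eif3a, in the authors' deposited table. Apart from GO RNA transport, these terms count the peaks that chose the 6 genes, so they are no independent support.

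In fragments and background, the nearest peak of the gene table with the same marks, outside both lists, was that of Eya4 for Eif3a (28 fragments over 7 in each). For Eif2s2 it was Plcb4 (52 over 9), for Eif5 Bnip3 (89 over 21) and for Eif5b Zfp292 (116 over 41). For Eif4a2 it was Arid4a (119 over 26) and for Eif4e2 Yes1 (38 over 15). Such likeness is in 2 numbers of 1 peak each.

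As a check of the label, 5 of 19 myotube markers had a peak in the gene table (Mylpf, Neb, Tnnt1, Tnni2 and Trdn), and 0 of 4 neuron, 0 of 3 hepatocyte, 0 of 3 immune and 0 of 2 endothelial markers did. Over gene bodies, Ttn and the neuron marker Syn1 also had peaks. At the 5.82% of all protein-coding genes, 0 of these 12 markers of other cell types does not set them apart. A gene without a peak has no value in these files, so the makeup of the culture was not measured.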

How the data were processed

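Values come from 1 RIP library of C2C12 myotubes set against 1 input. The design text names Bowtie for alignment to mm10 and MACS for peaks. Other tools named, per the submitters' processing notes, are Trim Galore, Picard, HOMER, FastQC, DiffBind and deepTools. The authors deposited, per the file headers, a pileup signal, a fold enrichment (a linear ratio), and −log10 p-values and q-values for each peak. They also deposited marks of elements, the count and percent of peaks per element, and tables of KEGG and GO terms with gene counts, p-values and FDR. These scores are the authors' own. Library totals were not used here, so depth is unknown.

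Background was computed as (pileup + 1) / fold − 1. Poisson tails computed from this background were within 0.01 of the deposited −log10 p-values in 100% of cases. Peaks were set against GENCODE M21 on GRCm38, with at least 1 bp of overlap. The principal transcript is the longest that GENCODE tags as principal. Of the 1285 genes, 1269 matched by symbol, 12 by synonym and 4 did not. Copies were searched with BLAST 2.17.0 (90% identity, 80% of width). Functions were tested on simulated data. Python 3.11.15, pandas 2.3.3, SciPy 1.17.1 and matplotlib 3.10.9 were used. The genes, lists and rules were chosen with earlier results of these data known. Named genes were the 6 factors, list genes in the gene table, the 10 with the highest fold among list genes with a peak over the body only, and the nearest peak for each factor. Alternatives covered peak thresholds, the assignment of peaks, elements, the added 1 and the motif. The sequence of the Eif5b stop codon peak is not reported here.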

Additional observations from a re-analysis of the deposited data

How the results depend on the processing

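At a fold enrichment of 4 or more, 1 of the 8 gene-table peaks of the 6 factors remained (Eif2s2), against 33.2% of all gene-table peaks. Of the 10 initiation factors of the list, 3 remained. At a q-value of 1e-05 or less the numbers were 6 peaks and 7 genes. The share of all gene-table peaks at that q-value, and of its genes at either threshold, was not computed. These counts therefore do not set the factors apart. Over gene bodies the list held 16 genes, by overlap and also by peak centre, and the 6 factors 9 peaks. The 8 peaks marked by the authors as exonic fell to 5 by the summit and 4 by most of the width in exons of the principal transcript, both chosen after seeing the data. Fewer transcripts are allowed there by construction. Without the added 1, all 8 folds stayed inside their intervals. No replicate could be left out. No paired analysis was possible because each group has 1 library and no test was made. The peak with the fewest fragments, that of Eif3a, rests on 28, and the depth of the libraries is unknown here.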
